A study of Mus musculus with 16 samples.

Results

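Microglia of the dentate gyrus (DG) were followed in single-nucleus RNA and accessible-chromatin profiles of mice with and without a missense mutation in *Nrg1*. Nuclei were taken as microglia when they held 3 or more RNA molecules, counted by their unique molecular identifiers (UMIs), summed over 10 marker genes (*Inpp5d*, *Ly86*, *Ctss*, *Selplg*, *Siglech*, *Ikzf1*, *Fyb*, *C1qa*, *C1qb* and *C1qc*), and at most 1 UMI summed over 5 genes of other cell classes (*Gad2*, *Pdgfra*, *Mog*, *Gja1* and *Prox1*). By this rule 394 of 17015 nuclei were microglia, and the remaining 16621 nuclei, of which most held RNA of the neuronal gene *Rbfox1*, served for comparison. WT mice (VV) carried 2 valine alleles of *Nrg1* and V321L mice (LL) were homozygous for leucine at that position, so every cell of a V321L mouse carried the mutation. Each genotype was represented by 4 mice, females F1 and F2 and males M1 and M2. The DG was microdissected, frozen and used for nuclei, and 1 library per mouse gave RNA and ATAC counts of the same nuclei. Age was not given in the labels of these libraries, and no batch was named. Values of 4 mice are listed below in the order F1, F2, M1 and M2.

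Microglia are the resident macrophages of the brain parenchyma. They arise from yolk sac progenitors, depend on signalling through the Csf1 receptor, and hold their tissue identity under the influence of TGF-β and of transcription factors such as PU.1, Irf8 and Sall1. In the hippocampus they survey synapses through purinergic and fractalkine receptors, clear apoptotic newborn neurons, and tag and engulf synapses with the help of complement, and in disease they can pass into a lysosome- and lipid-rich state that depends on Trem2.

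The WT libraries held 22, 25, 12 and 30 microglia among 1834, 3762, 1981 and 2253 nuclei, and the V321L libraries 73, 99, 62 and 71 among 2062, 2019, 1515 and 1589. A barcode counted as a nucleus with more than 500 and at most 8916 UMIs, 251 to 3307 detected genes, less than 2.79% of its UMIs from mitochondrial genes, and an ATAC count over all peaks of 500 or more. Microglia held a median of 5 marker UMIs in WT (n = 89) and of 16 in V321L mice (n = 305). Of all nuclei that met the limit on other classes, 39 sat just inside the threshold with exactly 3 marker UMIs (21 WT, 18 V321L) and 100 just outside it with 2 (29 WT, 71 V321L). Of nuclei with enough marker UMIs, 50 held the 1 permitted UMI of another class and 20 were left out with 2. At least 3 different marker genes were detected in 75 WT and 292 V321L microglia, whereas 5 microglia in all rested on a single gene. No microglial barcode occurred in more than 1 library, although libraries shared between 1 and 13 barcodes of other nuclei per pair.

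WT M1 stood apart from the other libraries. Its 12 microglia had a median of 2041 UMIs and 1214.5 genes, against medians of 927, 796 and 998.5 UMIs in WT F1, F2 and M2. Neuronal RNA, measured as the share of UMIs from 10 neuron markers, was at or above 0.5% in 10 of the 12, and these 10 nuclei held 88.9% of the UMIs that entered its microglial sum. In all, 31 of 89 WT and 58 of 305 V321L microglia reached this neuronal share. In the other libraries such nuclei held 45.8, 74.0 and 39.3% of the summed microglial UMIs of WT F1, F2 and M2 and 44.7, 35.9, 34.4 and 68.1% of those of V321L F1, F2, M1 and M2, so that their part by UMIs was larger than by number. The main comparisons were therefore also made without them. The 18 WT and 47 V321L microglia with the most UMIs held 77997 and 220534 UMIs. The 44 and 136 with the fewest held 31818 and 107237. Median neuronal shares were 0.706 and 0.978% in the deepest, beside library medians of 0.943 to 1.10% in other nuclei. Marker UMIs were a median of 0.116 and 0.167% in the deepest and 0.929 and 1.75% in the shallowest. Much RNA of the main sums thus came from nuclei nearer in neuronal share to other nuclei than to the shallowest microglia. Scrublet scored 22 microglia above the mean + 2 SD of their library, 3 WT and 19 V321L. Of the 394 nuclei, 19 held 2 or more UMIs of border macrophage genes (3 WT, 16 V321L).

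The label was first checked against microglial genes that the rule did not use. Since the rule itself selected on RNA, levels in microglia and other nuclei are described with no test. *Csf1r*, the receptor for the microglial survival factors, averaged 517 CPM (UMIs scaled to a total of 1000000) in microglia and 2.37 CPM in other nuclei over the 8 mice, *Tmem119* 151 and 0.464 CPM, the fractalkine receptor gene *Cx3cr1* 433 and 7.86 CPM, and the ADP receptor gene *P2ry12* 971 and 40.6 CPM. All 4 genes were higher in microglia in 8 of 8 mice. Of 20 homeostatic microglial genes, 13 were higher in microglia in every mouse, with a median log2 difference of 5.45 (pseudocount 1 CPM). Of 10 neuron markers, 7 were lower in microglia in every mouse. *Csf1r* was least separated in WT M1.

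**Figure D1:**
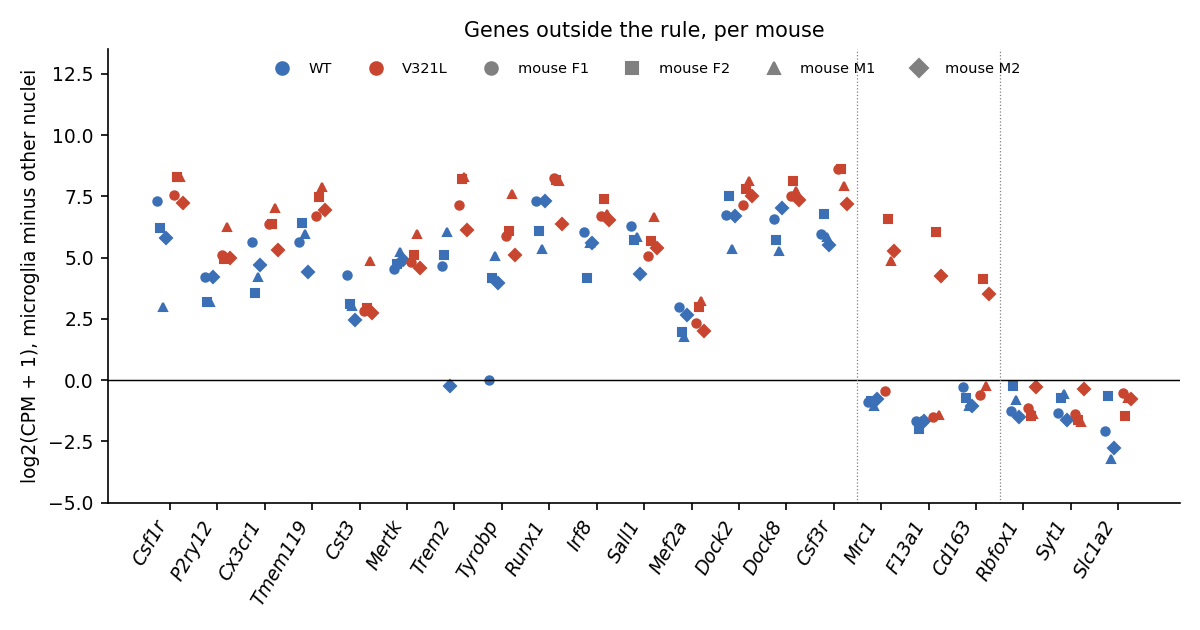
Difference between microglia and other nuclei of the same mouse in log2(CPM + 1), for genes that the rule did not use (blue WT, red V321L, 1 symbol per mouse). *Csf1r*, *Cx3cr1* and *Tmem119* lay above 0 in all 8 mice, and *Rbfox1* and *Syt1* lay below 0 in all 8. The border macrophage genes *Mrc1*, *F13a1* and *Cd163* lay above 0 in V321L F2 and M2 and at or below 0 in every WT mouse. The full border macrophage list, led by *Stab1*, was at 71.0, 0, 64.5 and 185 CPM in WT microglia. In WT other nuclei it averaged 5.04 CPM.

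Detection per nucleus is given beside that in other nuclei, where free RNA and a few unlabelled microglia can supply UMIs. *Csf1r* had a UMI in 25 of 89 WT microglia (28.1%) and in 193 of 305 V321L microglia (63.3%), against 0.380% and 0.683% of other nuclei. *P2ry12* was detected in 56.2% and 69.5% of WT and V321L microglia, and in 9.63% and 8.24% of other nuclei. Median depth averaged 1191 and 1025 UMIs over mice in WT and V321L microglia, below the 1637 and 3554 UMIs of other nuclei, and microglia were the shallower nuclei in every library except WT M1. *Mrc1*, the mannose receptor of border macrophages, had a UMI in 11 of 305 V321L microglia (3.61%) and in 0 of 89 WT microglia, and *Mrc1* was seen in 0.154% and 0.116% of other nuclei. Genes of border macrophages summed to 71.0, 0, 64.5 and 185 CPM in WT and 75.4, 588, 169 and 303 CPM in V321L microglia, led by *Stab1*, and genes of other leukocytes to 71.0, 21.5, 161 and 0 and 37.7, 37.1, 10.6 and 7.58 CPM, with 9 of 13 at 0 in every mouse, among them the T cell gene *Cd3e* and the neutrophil gene *S100a8*.

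The 10 genes that exceeded other nuclei most, among those with at least 100 CPM and higher in 8 of 8 mice, were *Ikzf1*, *Inpp5d*, *Siglech*, *Ly86*, *Fyb*, *Selplg*, *Runx1*, *Ctss*, *Dock2* and *Csf3r*. Of these, 7 were marker genes that chose the nuclei. *Ikzf1*, which encodes a zinc finger factor of blood and myeloid lineages, stood 8.11 ± 1.16 (SD, n = 8) above other nuclei on the log2 scale, and *Inpp5d*, the inositol phosphatase SHIP1, 8.07 ± 1.09. Outside the rule, the hematopoietic factor *Runx1* differed by 7.12 ± 1.08, the leukocyte Rac activator *Dock2* by 7.11 ± 0.86, and the granulocyte colony-stimulating factor receptor *Csf3r* by 7.05 ± 1.24. A difference of this kind was positive in every mouse for 482 genes with at least 100 CPM in microglia.

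Among the marker genes, those of the C1q complex separated the genotypes while the others mostly overlapped. *C1qa*, which encodes a chain of the initiating component of the classical complement pathway, stood at 71.0, 0, 129 and 82.1 CPM in WT and 1837, 1528, 2771 and 1349.8 CPM in V321L microglia. *C1qb* and *C1qc* stood at 81.8 ± 85.3 and 59.8 ± 26.6 CPM (SD, n = 4) in WT and at 1617 ± 586 and 1456 ± 370.4 CPM in V321L microglia. The lysosomal protease gene *Ctss* did not overlap either, with 532, 193, 226 and 369.6 CPM in WT and 1932, 1596, 2527 and 1349.8 CPM in V321L microglia. *Inpp5d*, *Ly86*, *Selplg*, *Siglech*, *Ikzf1* and *Fyb* overlapped between genotypes, and *Ikzf1* had 887, 537, 258 and 883 CPM in WT and 499, 668, 783 and 372 CPM in V321L microglia. These UMIs selected the nuclei, so no test was made. In other nuclei *C1qa* averaged 0.371 and 10.7 CPM, and in barcodes with at most 100 UMIs, which hold free RNA, 18.5 and 204 CPM, in WT and V321L libraries.

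**Figure D2:**
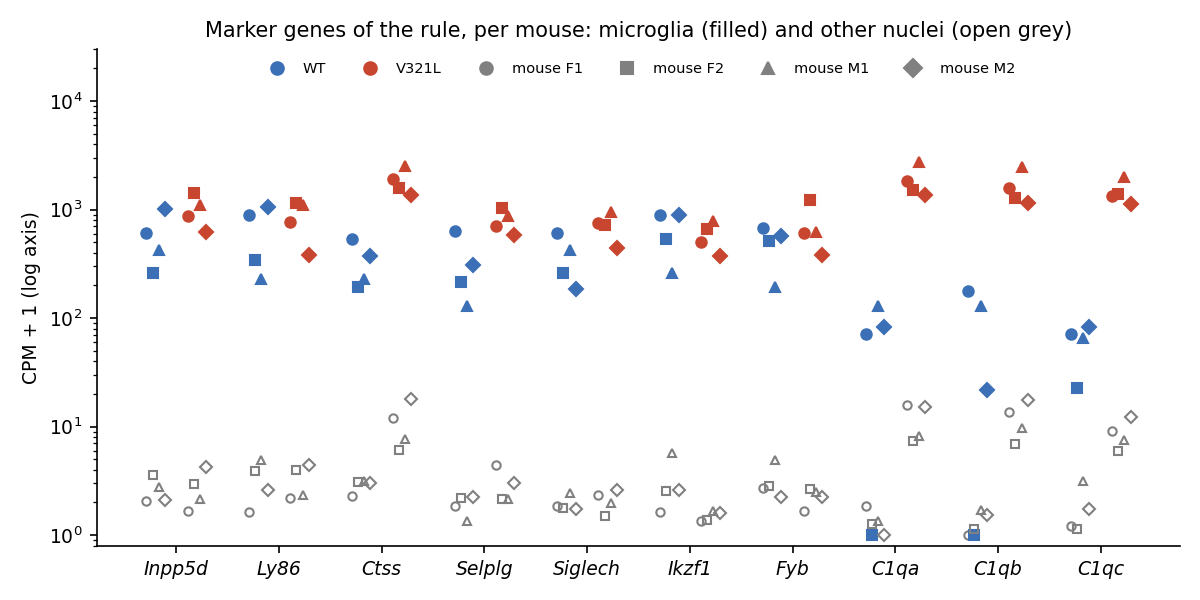
CPM + 1 on a log axis of the 10 marker genes of the rule, per mouse, in microglia (filled, blue WT and red V321L) and in other nuclei (open grey, WT left and V321L right of each pair). The C1q genes reached at least 1129.9 CPM in every V321L mouse and at most 177 CPM in WT mice, whereas *Inpp5d*, *Ly86*, *Ikzf1* and *Fyb* overlapped.

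The first comparison asked whether microglia took a different share of the nuclei in the 2 genotypes. They made up 1.20, 0.665, 0.606 and 1.33% of the nuclei in WT and 3.54, 4.90, 4.09 and 4.47% in V321L mice. The groups did not overlap, and the lowest V321L mouse lay above the highest WT mouse by more than the range within either group. The mean share was 0.950 ± 0.369% in WT and 4.25 ± 0.578% in V321L (SD over 4 mice), a difference of 3.30 percentage points or 4.47-fold (two-sided exact permutation test, p = 0.0286, the smallest that 4 against 4 mice allow). When every nucleus was thinned to 500 UMIs the share was 0.482 ± 0.352% in WT and 3.69 ± 0.560% in V321L, and at 1000 UMIs, a depth that 44 WT and 136 V321L microglia did not reach, 0.353 ± 0.153% in WT and 2.11 ± 1.03% in V321L. Among microglia with less than 0.5% neuronal RNA it was 0.620 ± 0.455% in WT and 3.43 ± 0.632% in V321L, and with the C1q genes taken out of the rule 0.900 ± 0.375% in WT and 3.89 ± 0.590% in V321L. Without WT M1 the WT mean was 1.07%. The groups did not overlap in any of these 5 settings (exact permutation p = 0.0286 each).

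**Figure D3:**
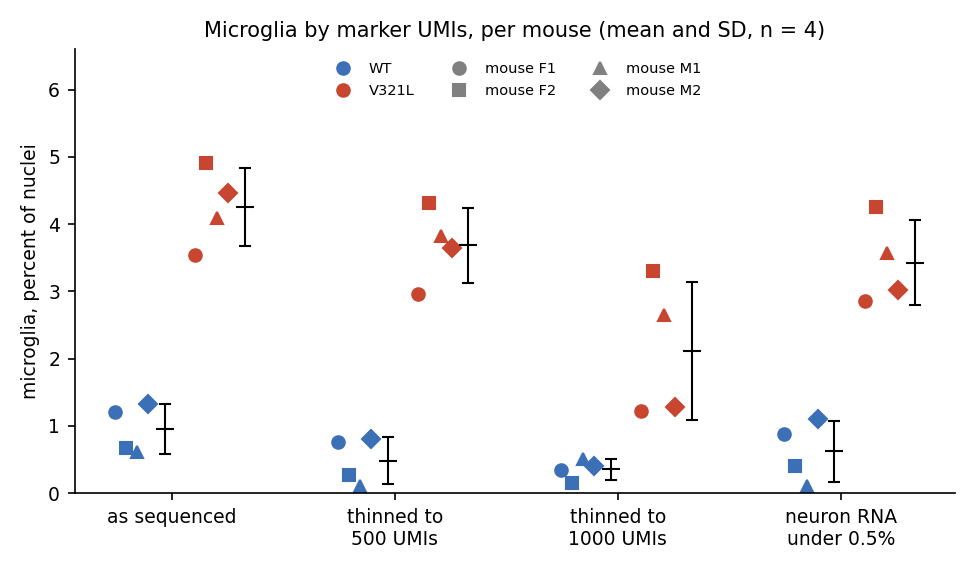
Microglia as a percent of nuclei, 1 point per mouse with the mean and SD of 4 mice in black, as sequenced, after thinning to 500 and 1000 UMIs per nucleus, and with nuclei of at least 0.5% neuronal RNA left out of the microglia. The V321L mice sat between 3.54% and 4.90% as sequenced and the WT mice between 0.606% and 1.33%.

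A share depends on which nuclei were recovered as well as on the tissue. Barcodes that met the marker rule but exceeded the mitochondrial limit numbered 1, 0, 1 and 1 in WT and 105, 45, 60 and 251 in V321L libraries. They were not counted as microglia. The part of recovery in the difference was not tested.

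Quality of the microglial nuclei was then compared, because it bears on every level below. All 4 measures were also limited by the rule for nuclei, so these tests describe admitted nuclei only. The mitochondrial limit left out 461 V321L and 3 WT barcodes that met the marker rule. Median UMIs were 927, 796, 2041 and 998.5 in WT and 920, 1191, 1071.5 and 918 in V321L microglia, and the groups overlapped (adjusted p = 0.943, exact permutation test). Median ATAC counts, at 3667.5, 1435, 13759.5 and 3067 and 1539, 4714, 10942.5 and 1375, overlapped as well (adjusted p = 0.943, exact permutation test). The mitochondrial RNA share was 0.147, 0.172, 0.0668 and 0.0680% in WT and 1.51, 0.802, 0.812 and 1.45% in V321L microglia, with no overlap (exact permutation p = 0.0286, adjusted over 4 measures p = 0.114, the smallest a single one of 4 measures can reach). Other nuclei differed in the same way, with 0.102 ± 0.0292% and 0.755 ± 0.355% mitochondrial RNA, and in them UMIs also separated the genotypes, at 1967, 1530, 1120 and 1930 in WT and 2793, 4157.5, 4248 and 3018.5 in V321L mice (SD, n = 4; exact permutation, adjusted p = 0.0381 for each). Median genes per nucleus, at 617, 556, 1214.5 and 650.5 in WT and 716, 893, 784 and 718 in V321L microglia, overlapped through WT M1 alone (adjusted p = 0.943, exact permutation test), and without WT M1 the V321L mice were all higher, by a mean of 169.9 genes (exact permutation p = 0.0286, adjusted p = 0.0571).

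Gene expression of microglia was next compared between genotypes on UMIs summed per mouse, between 28178 and 48700 UMIs in WT and between 94564 and 161691 in V321L mice. Of 1615 genes with enough counts, leaving out the 15 genes of the rule, 223 were higher in V321L (13.8%) and 137 lower (8.48%; edgeR quasi-likelihood test, adjusted p under 0.05), and the median log2 fold change was -0.05. Scaled by library size alone, the median was -0.28, and 186 genes were higher and 275 lower. In the other nuclei of the same mice, 1575 of these genes could be tested. There 217 were higher and 1129 lower, with a median of -0.64, and the lists below are therefore given beside their medians over those of the same genes that could be tested in other nuclei. The filter asked for a minimum count in as many mice as 1 group holds, so a gene high in V321L could pass it through that group alone. With no filter, 995 of 16602 genes were higher (5.99%) and 123 lower (0.741%). With nuclei of at least 0.5% neuronal RNA left out, and WT M1 with them, 172 of 1009 genes were higher (17%) and 140 lower (13.9%), and counts of the main lists in that fit are given as those in neuron-poor microglia. WT microglia sat closer to the threshold of the rule than V321L microglia, and with at least 5 marker UMIs required, 121 genes were higher and 33 lower. Leaving out V321L F1, F2 or M1 left 122, 142 or 131 genes higher and 46, 28 or 37 lower, leaving out V321L M2 191 and 191, and leaving out WT F1, F2, M1 or M2 gave 387, 318, 371 or 409 higher and 195, 99, 115 or 207 lower, over other numbers of tested genes.

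Most genes of homeostatic microglia were higher in V321L mice, 14 of 20 with no filter, beside 5.99% of all genes. Of 20 on the list, 18 passed the filter on low counts, 13 were higher, beside 13.8% of all genes, and none was lower. The median log2 fold change was 1.68, against -0.05 over all genes. In other nuclei only 11 of the 18 could be tested, with a median of -0.23. *Csf1r* stood at 532, 172, 32.3 and 164 CPM in WT and 669, 798, 1132 and 637 CPM in V321L mice, which did not overlap, with WT F1 highest and WT M1 lowest among WT (2.14 ± 0.45, adjusted p = 0.00207). *Cx3cr1* stood at 461, 107, 226 and 267 CPM in WT and 575, 711, 793 and 326 CPM in V321L mice and overlapped (1.45 ± 0.40, adjusted p = 0.0134), while in other nuclei its log2 fold change was -0.93. *Tmem119* rose as well (1.54 ± 0.45, adjusted p = 0.0191). *Mertk*, a receptor for the uptake of apoptotic cells, stood at 709.8, 687, 516 and 801 CPM in WT and 1263, 1701, 1332 and 713 CPM in V321L mice (1.09 ± 0.32, adjusted p = 0.0215).

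*P2ry12*, the ADP receptor by which microglial processes find injury, stood at 1242, 537, 452 and 945 CPM in WT and 970.5, 971, 1967 and 682 CPM in V321L mice, which overlapped (0.77 ± 0.38, adjusted p = 0.160). Among the 20 homeostatic genes, the highest mean over the 8 mice was that of *Cst3*, though in WT it lay below *P2ry12* on average. *Cst3* encodes the cysteine protease inhibitor cystatin C and is also made by astrocytes. *Cst3* stood at 887, 344, 516 and 226 CPM in WT and 9366, 8071, 14329 and 7485 CPM in V321L microglia (4.58 ± 0.44, adjusted p = 1.95e-06), and its log2 fold change in other nuclei was 3.99. The list summed to 5122 ± 2212 CPM in WT and 21328 ± 6215 CPM in V321L microglia (SD, n = 4), and among microglia with less than 0.5% neuronal RNA to 9549 ± 2895 CPM (n = 3, WT M1 dropped) and 34467 ± 5765 CPM (n = 4). In neuron-poor microglia 12 of 18 genes were higher, beside 17% of all genes in that fit, and the median was 1.68. In other nuclei the list summed to 218 ± 59.3 and 1138 ± 373 CPM, so that its sum was higher in V321L while the median of its tested genes was negative. In free RNA, from barcodes with at most 100 UMIs, the list summed to 1753 ± 585 and 7783 ± 911 CPM, to which *Cst3* gave 916 and 7059 CPM and *Csf1r* 14.0 and 34.6 CPM in WT and V321L libraries. The part of free RNA in the microglial values was not tested for any list.

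Receptors and the signalling proteins downstream of their ITAM motifs were counted next. Of 22 genes, 14 could be tested, 7 were higher and none lower. The median was 1.46 in microglia, against -0.67 for the 9 that could be tested in other nuclei. With no filter 9 of 22 were higher, and in neuron-poor microglia 9 of 14, none lower in either. Beside these counts, 13.8% of all genes were higher in the main fit, 5.99% with no filter and 17% in neuron-poor microglia. All members summed to 3261 ± 1334 CPM in WT and 7105 ± 2000.4 CPM in V321L microglia, and to 164 ± 40.4 and 380.5 ± 45.3 CPM in free RNA (SD, n = 4). *Csf3r* stood at 142, 150.3, 96.8 and 103 CPM in WT and 452, 643, 402 and 265 CPM in V321L mice, with no overlap (2.05 ± 0.38, adjusted p = 6.05e-04). *Trem2*, a lipid-sensing receptor of microglia, stood at 35.5, 42.9, 64.5 and 0 CPM in WT and 726, 742, 1036 and 372 CPM in V321L mice (4.59 ± 0.55, adjusted p = 1.45e-05), on 5 WT and 344 V321L UMIs. *Tyrobp*, its ITAM-bearing adaptor, rose alike (4.85 ± 0.54, adjusted p = 7.24e-06) on 3 WT and 247 V321L UMIs, a ratio of 25.7 with a 95% counting interval from 8.70 to 126. The most abundant signalling genes did not pass the test. *Lyn*, a Src family kinase, stood at 1065, 472, 484 and 534 CPM in WT and 490.0, 940.1, 1163 and 485 CPM in V321L mice (0.51 ± 0.36, adjusted p = 0.337). *Dock2* and *Dock8*, activators of Rac and Cdc42, and *Apbb1ip*, an adaptor for integrin activation, overlapped between genotypes, with log2 fold changes of 0.00, 0.66 and 0.66 (adjusted p = 0.998, 0.190 and 0.218), and the sign of *Dock2* turned when library sizes alone were used.

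Of 20 transcription factors of the lineage, 10 could be tested, and 2, *Irf8* and *Maf*, were higher, beside 13.8% of all genes. None was lower, and the median was 0.39 against -0.96 in other nuclei. In neuron-poor microglia 3 of 11 were higher, among them *Irf8* and the PU.1 gene *Spi1*, and 1, *Zeb2*, was lower, beside 17% and 13.9% of all genes in that fit. *Irf8*, a partner of PU.1 in macrophage development, rose from 68.7 ± 35.8 to 213 ± 57.5 CPM (1.92 ± 0.44, adjusted p = 0.00403). *Zeb2*, a zinc finger factor with the highest level on the list, stood at 1916, 1911, 1484 and 2361 CPM in WT and 1272, 1255, 1174 and 1077 CPM in V321L mice. Its groups did not overlap, with V321L lower, but the difference did not pass the test (-0.45 ± 0.29, adjusted p = 0.279) outside neuron-poor microglia (-0.64 ± 0.23, edgeR, adjusted p = 0.0404), and other nuclei differed by -1.02. *Mef2a* and *Mef2c*, MADS-box factors shared with neurons, overlapped, at 2236, 1267, 774 and 1704 and 1384, 1288, 581 and 1232 CPM in WT and at 876, 1280.2, 1554 and 645 and 791, 952, 1216 and 554 CPM in V321L microglia. *Runx1* overlapped as well (0.92 ± 0.43, adjusted p = 0.136).

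TGF-β signalling maintains microglial identity, and of its 12 genes 6 could be tested, with 0 higher and 0 lower in V321L at an adjusted p under 0.05 and a median of 0.52, against -0.13 in other nuclei. Their adjusted p lay between 0.0713 and 0.912 (edgeR). In neuron-poor microglia 1 of 7 was higher, *Nrros* (2.27 ± 0.61, edgeR, adjusted p = 0.00781), beside 17% of all genes in that fit. With no filter 3 of 12 were higher and none lower, beside 5.99% of all genes higher. *Tgfbr1*, the type I receptor, stood at 2307, 1095, 709.9 and 1848 CPM in WT and 1385, 1583, 1808 and 720.4 CPM in V321L mice, and *Itgb5*, an integrin subunit that can activate latent TGF-β, at 674, 150.3, 258 and 431 and 499, 631, 529 and 265 CPM. Both overlapped between genotypes (0.12 ± 0.37, adjusted p = 0.858 for *Tgfbr1* and 0.61 ± 0.39, adjusted p = 0.276 for *Itgb5*), and the sign of *Tgfbr1* turned when library sizes alone were used. Among purinergic genes 1 of 3 tested was higher, beside 13.8% of all genes, and the median was 0.77, against -1.37 for the 2 that could be tested in other nuclei. The gene was *P2ry6*, the UDP receptor linked to phagocytosis, at 35.5, 85.9, 0 and 61.6 CPM in WT and 311, 371, 233 and 152 CPM in V321L mice (2.58 ± 0.50, adjusted p = 0.00104), whereas the ectonucleotidase *Entpd1* overlapped (0.46 ± 0.38, adjusted p = 0.407). Of complement and phagocytosis genes 3 of 7 were higher, beside 13.8% of all genes, and none lower. The median was 0.88, against -0.09 for the 4 that could be tested in other nuclei. By library sizes alone 1 of 7 was higher, and with no filter 5 of 18, beside 5.99% of all unfiltered genes. The 3 included *Sirpa*, the inhibitory receptor for the signal Cd47, at 142, 107, 161 and 369.6 CPM in WT and 726, 755, 1047 and 531 CPM in V321L mice, with no overlap (2.14 ± 0.39, adjusted p = 5.00e-04).

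Genes that microglia raise in disease models and genes of the lysosome were compared next, and here other nuclei moved as well. Of 20 disease-associated genes, 10 passed the filter, and 9 of these were higher and none lower, with a median of 4.10 (3.88 with *Cd63* at its bound) in microglia and 3.04 in other nuclei. With no filter, 9 of 19 were higher and 10 did not pass the test, with a median of 2.97, beside 0.92 over all unfiltered genes. In neuron-poor microglia 9 of 9 were higher. Genes could pass the filter through V321L alone, so nothing is read from 9 of 10 or 9 of 9. Of all genes, 13.8% were higher in the main fit, 5.99% with no filter and 17% in neuron-poor microglia. All members together summed to 781, 644, 581 and 637 CPM in WT and 6982, 5919, 8492 and 5771 CPM in V321L microglia, and to 360.0 ± 45.1 and 1917 ± 550.1 CPM in other nuclei (SD, n = 4). In free RNA they summed to 2394 ± 342 and 12100.1 ± 1520.3 CPM, above the microglial sums in both genotypes and higher in V321L as well. *Apoe* was at 814 and 2503 CPM and *Fth1* at 1094 and 8470.3 CPM in free RNA of WT and V321L libraries, and *Ctsd* at 53.1 and 185 CPM. *Apoe*, the brain's main lipid carrier, stood at 71.0, 0, 32.3 and 144 CPM in WT and 942, 761, 1184 and 1115 CPM in V321L microglia (4.18 ± 0.52, adjusted p = 1.82e-05), with 3.24 in other nuclei. *Ctsd*, an aspartic protease of the lysosome, stood at 248, 42.9, 96.8 and 82.1 CPM in WT and 1442, 1373, 2252 and 1069 CPM in V321L microglia (4.03 ± 0.46, adjusted p = 7.88e-06), with 1.94 in other nuclei. The groups of both genes were far apart. *Fth1*, the ferritin heavy chain, rose from 29.1 ± 19.9 to 1015 ± 417 CPM and *Ctsb*, a cysteine protease, from 98.2 ± 79.6 to 569 ± 94.1 CPM, while in other nuclei *Fth1* differed by 3.73 and *Ctsb* by 1.35.

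Of 20 lysosomal genes, 15 could be tested, 13 were higher and none lower, with a median of 2.23 in microglia and 1.06 in other nuclei. In neuron-poor microglia 15 of 17 were higher, and with no filter 16 of 20. The shares of all genes that were higher were 13.8% in the main fit, 17% in neuron-poor microglia and 5.99% with no filter. The list summed to 2612 ± 951 and 9928 ± 2812 CPM in WT and V321L microglia and to 1572 ± 401 and 2011 ± 182 CPM in free RNA (SD, n = 4). *Lgmn*, an asparaginyl protease abundant in microglia, stood at 532, 172, 129 and 369.6 CPM in WT and 782, 909, 1079 and 554 CPM in V321L mice (1.72 ± 0.38, adjusted p = 0.00322), with 0.56 in other nuclei. Antigen presentation was covered by 3 testable genes of 14, which were higher, beside 13.8% of all genes. Their median was 3.02, against 2.77 in other nuclei. Of the 3, 1 had no UMI in WT and passed the filter through V321L alone, so nothing is read from 3 of 3. With no filter 3 of 12 were higher, beside 5.99% of all genes. *B2m*, the light chain of class I molecules, stood at 106, 64.4, 96.8 and 164 CPM in WT and 952, 674, 1015 and 447 CPM in V321L mice (3.02 ± 0.41, adjusted p = 3.65e-05), with 2.05 in other nuclei. *H2-D1*, a class I heavy chain whose reads may be shared with its close relatives such as *H2-K1*, had 0 UMIs in WT and 92 in V321L microglia, at least 9.58-fold higher against a floor of 3 counts over the WT group. Among NF-κB and cytokine genes 1 of 3 was higher, beside 13.8% of all genes, and the median of 0.13, against -0.30 for the 2 testable in other nuclei, turned to -0.10 by library sizes alone. The gene was the interleukin 6 receptor gene *Il6ra* (1.58 ± 0.39, adjusted p = 0.00734). No gene of the interferon, proliferation or activity-induced lists passed the filter, and these lists summed to 323 ± 259.7, 147 ± 146 and 67.8 ± 84.2 CPM in WT and to 429 ± 122, 29.5 ± 33.0 and 194 ± 44.8 CPM in V321L microglia (SD, n = 4).

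Genes for translation and respiration were higher in V321L mice as well. With no filter, 77 of 80 genes for cytosolic ribosomal proteins were higher in microglia, beside 5.99% of all genes. So were 57 of 75 nuclear-encoded genes of oxidative phosphorylation and 9 of 13 mitochondrial transcripts. The filter kept 31, 4 and 8 of them, and all of these were called higher, beside 13.8% of all genes. A gene could pass it through V321L alone, and 3 ribosomal genes and 1 oxidative phosphorylation gene were at 0 in WT. Nothing is therefore read from all kept genes being called. Nuclei were admitted by a limit on mitochondrial RNA, so counts of mitochondrial transcripts describe nuclei within it. In neuron-poor microglia 25 of 25, 3 of 3 and 7 of 8 were called higher, beside 17% of all genes. As a description, medians of the genes that passed the filter in all microglia were 4.45 (4.30 with genes at 0 in WT set to their bound), 5.44 (5.02 with bounds) and 3.46 in microglia, beside 4.03, 3.51 and 1.70 in other nuclei. Over all members, oxidative phosphorylation genes summed to 1121 ± 159 and 8727 ± 3192 CPM and mitochondrial transcripts to 1676 ± 566 and 11326 ± 2762 CPM in WT and V321L microglia (SD, n = 4), and in free RNA these summed to 5885 ± 1401 and 57621 ± 7631 CPM and 82869 ± 16062 and 162677 ± 33615 CPM. Of heat shock genes 2 of 3 were higher, with medians of 1.74 in microglia and 1.23 in other nuclei, and with no filter 3 of 11, beside 13.8% and 5.99% of all genes. Ribosomal protein genes summed to 923, 451, 1291 and 801 CPM in WT and 23556, 10761, 14519 and 21097 CPM in V321L microglia, to 735 ± 298 and 12634 ± 4902 CPM in other nuclei and to 10522 ± 2795 and 107487 ± 6542 CPM in free RNA. Transcripts of these genes were thus higher in V321L libraries in all 3 kinds of barcode. Reads of ribosomal protein genes can also come from their processed pseudogenes.

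By the rule for naming genes, 9 of the 10 largest fitted log2 fold changes among 175 rises were those of *Rps27a*, *Eif1*, *Cox6a1*, *Rpl23*, *Cd63*, *Rplp1*, *Tmsb4x*, *Cox8a* and *Ubb*. The first 5 of them had no UMI in WT microglia, so that their fitted values, and their place among the 10, depend on the prior count of the fit, and their bounds lie below the fitted folds of *Trem2*, *Tyrobp*, *Cst3* and *Apoe*. Against the floor, *Rps27a* and the initiation factor *Eif1* were at least 15.7-fold higher, the cytochrome c oxidase subunit *Cox6a1* at least 14.1-fold, *Rpl23* at least 12.7-fold and the lysosomal tetraspanin *Cd63* at least 11.98-fold. *Rps27a* was seen at 537, 179, 159 and 379 CPM and *Cd63* at 188, 259.8, 328 and 167 CPM in V321L microglia. *Tmsb4x*, the actin-binding thymosin β4, stood at 71.0, 0, 0 and 41.1 CPM in WT and 2035, 977, 994 and 1517 CPM in V321L microglia, a ratio of 52.2 on 4 WT UMIs with a 95% counting interval from 20.3 to 192. *Rplp1*, *Cox8a* and the ubiquitin gene *Ubb* rested on 1, 1 and 2 WT UMIs, and their ratios were 95.3 (17.0 to 3777), 54.7 (9.69 to 2172) and 43.1 (11.8 to 358). These intervals cover counting error only. In other nuclei each of these 9 genes was higher in V321L mice too, with log2 fold changes from 3.44 for *Cd63* to 4.90 for *Rplp1*.

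**Figure D4:**
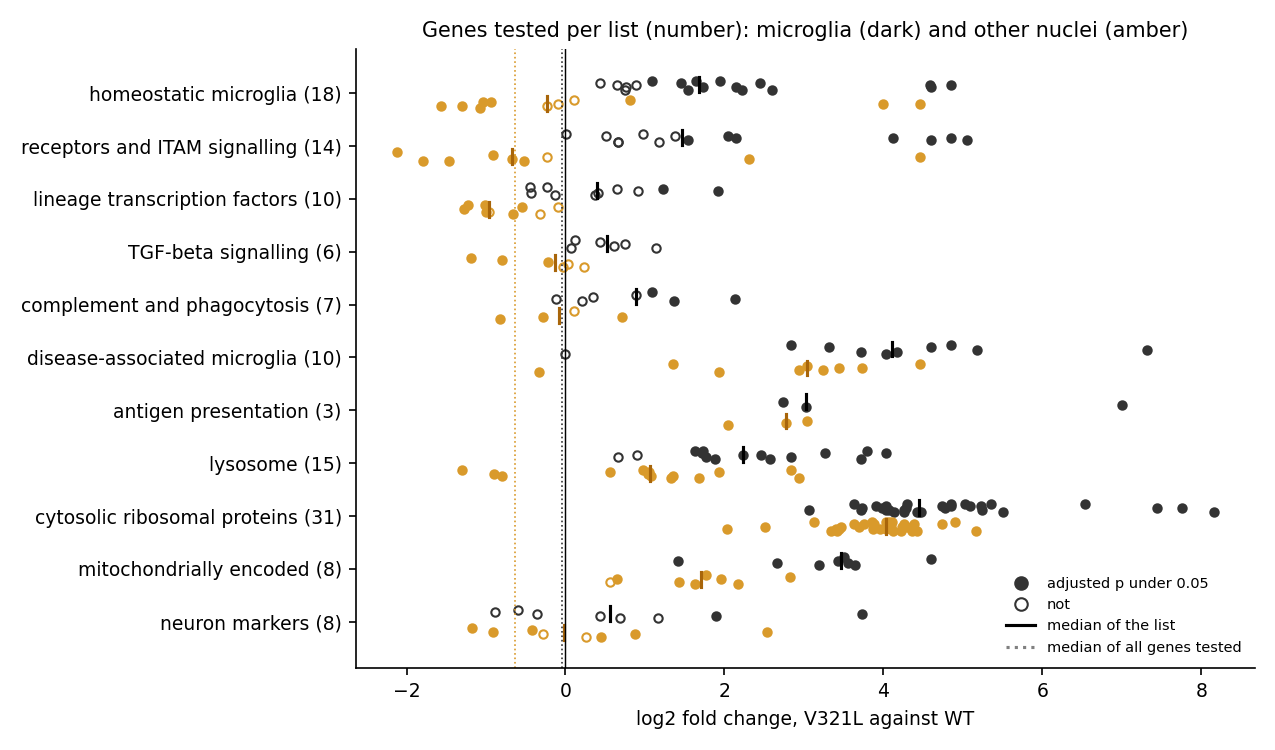
Log2 fold change of V321L against WT for each gene tested, by list (number of genes tested in brackets), in microglia (dark) and other nuclei (amber). Filled points passed an adjusted p under 0.05, bars are list medians and dotted lines the medians of all genes tested, -0.05 and -0.64. Medians of homeostatic (1.68 against -0.23), receptor and transcription factor genes lay to the right of those in other nuclei, whereas the medians of ribosomal genes were 4.45 and 4.03. Not every gene could be tested in other nuclei, where 11 of the 18 homeostatic genes are drawn.

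The 10 largest of 108 falls began with transcripts known to collect ribosomal RNA or to be poorly characterised. *Gm42418*, whose locus overlaps ribosomal RNA sequence, stood at 8446, 5389, 10003 and 6797 CPM in WT and 528, 315, 381 and 372 CPM in V321L microglia (-4.04 ± 0.37, adjusted p = 1.95e-06), with -4.92 in other nuclei. *AY036118* (-2.87), whose reads may be shared with *Gm42418*, *Gm26917* (-2.94) and *4930509J09Rik* (-3.04) fell in both classes too. Nuclear-retained *Malat1* moved the other way, at 9085, 6870.2, 9197 and 9609.9 CPM in WT and 30500, 30045, 34146 and 34193 CPM in V321L microglia, with a log2 fold change of 2.12 in microglia and 1.67 in other nuclei. The 7 nuclear-retained RNAs summed to 17538 ± 2727 and 34623 ± 2932 CPM in WT and V321L microglia (SD, n = 4). In free RNA they summed to 118534 ± 25582 and 9029 ± 1134 CPM, lower in V321L. These sums mix genes called higher and lower in microglia, and the free RNA sum is not split by gene here.

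The remaining 6 of the 10 falls were protein-coding genes. *Phlpp1*, a phosphatase that acts on Akt, stood at 461, 515, 516 and 719 CPM in WT and 151, 98.95, 63.4 and 98.6 CPM in V321L microglia, with no overlap (-2.19 ± 0.34, adjusted p = 9.46e-05). *Grid1*, a delta glutamate receptor, fell by 1.98 on the log2 scale, *Chsy3*, a chondroitin synthase, by 1.98, the cadherin *Cdh12* by 1.94, the transmembrane protein gene *Tmeff2* by 1.84 and *St18*, a zinc finger factor on the oligodendrocyte list, by 1.80. Of these 6 genes, all were lower in other nuclei of V321L mice as well, with log2 fold changes from -1.46 for *Grid1* to -0.55 for *St18*.

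RNA of other cell classes was present in the microglial sums and is given here beside the falls. Neuron markers summed to 4436, 7944, 7551 and 3943 CPM in WT and 5521, 3958, 4854 and 9555 CPM in V321L microglia, which overlapped, and to 10922 ± 716 and 11446 ± 901 CPM in other nuclei, led by *Rbfox1*. Of 8 neuron markers tested 2 were higher, *Meg3* and *Nrgn*, and none lower, with a median of 0.56 against -0.02 in other nuclei. In neuron-poor microglia 1 of 4 was higher, *Nrgn*, and 2 were lower, *Syt1* and *Rbfox1*. Beside these counts stand 13.8% higher and 8.48% lower of all genes, and 17% and 13.9% in neuron-poor microglia, and with so few genes tested nothing is read from them or from the counts that follow. Astrocyte markers summed to 1070.2 ± 144 and 1124 ± 289.9 CPM, oligodendrocyte markers to 639, 558, 1968 and 1253 CPM in WT and 707, 334, 508 and 736 CPM in V321L microglia, and markers of oligodendrocyte precursors to 753 ± 317 and 367 ± 57.4 CPM. WT M1 and WT M2 held the most oligodendrocyte RNA. Of these lists 1 astrocyte gene of 4 was higher and 1 lower, and 1 of 3 oligodendrocyte genes and the 1 precursor gene tested, *Tnr*, were lower. Medians were 0.78 for the astrocyte and -0.91 for the oligodendrocyte genes, beside -0.62 and 1.84 in other nuclei. Vascular markers stayed at or below 167 CPM in every mouse. The part of this RNA in the falls was not tested.

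*Nrg1* itself, which carries the mutation, is a membrane-bound growth factor known from neurons. In the microglial sums it stood at 532, 837, 1258 and 1006 CPM in WT and 217, 105, 508 and 197 CPM in V321L mice. The groups did not overlap and V321L was lower (-1.65 ± 0.42, adjusted p = 0.00930). In other nuclei it averaged 678 and 586 CPM (-0.68, adjusted p = 0.0523), and in free RNA 161 and 28.3 CPM, in WT and V321L libraries. In microglia with less than 0.5% neuronal RNA, *Nrg1* was at 65.4, 82.5 and 0 CPM in WT F1, F2 and M2 and at 17.0, 0, 16.1 and 0 CPM in V321L mice, where too few counts were left for a test. Its level thus dropped in both genotypes once nuclei with neuronal RNA were left out. *Nrg3*, a neuregulin abundant in neurons, did not pass the test (-1.01 ± 0.37, adjusted p = 0.0563) although its groups did not overlap. It passed, with V321L lower, by library sizes alone, after thinning to 500 UMIs per nucleus, without WT F1, WT M2 or V321L M2, and in neuron-poor microglia (-3.71 ± 0.43, edgeR, adjusted p = 4.61e-06), where it was at 1047, 1732 and 1185 CPM in WT and 51.1, 38.6, 96.8 and 190.2 CPM in V321L mice. In free RNA *Nrg3* averaged 1929 and 258 CPM in WT and V321L libraries. The list of neuregulins and ErbB receptors, led by *Nrg3*, summed to 1872 ± 747 and 266 ± 127 CPM in neuron-poor microglia (SD, n = 3 and 4) and to 2382 ± 427 and 346 ± 77.4 CPM in free RNA (SD, n = 4), lower in V321L in both.

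Whether microglia differed between genotypes in another way than the other nuclei was asked with an interaction term, with mouse as a block. Of 1615 genes, 0 had a more positive difference in microglia (0%) and 2 a more negative one (0.124%; edgeR, adjusted p under 0.05). At an unadjusted p under 0.05 there were 60 and 132, and DESeq2 called 19 and 2. Among the 2 genes called by edgeR was *Phlpp1*, with a difference of differences of -2.23 ± 0.34, adjusted p = 0.00345. Both kinds of nuclei were scaled together in this fit, whose median over all genes was -0.22, whereas the medians of the separate fits differed by 0.59. Relative to the median, *Phlpp1* differed by -2.01 between the separate fits, in which it had log2 fold changes of -2.19 in microglia and -0.76 in other nuclei. Oligodendrocyte markers, at 1104 ± 654 CPM in WT and 571 ± 188 CPM in V321L microglia, were at 505 ± 65.6 and 1283 ± 206 CPM in other nuclei (SD, n = 4), and the part of their RNA in these calls was not tested. Without WT M1 10 genes had a more positive and 1 a more negative difference, without WT F1 13 and 20, without WT M2 1 and 1, and without V321L M2 19 and 43.

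With nuclei of at least 0.5% neuronal RNA left out, and WT M1 with them, 48 genes had a more positive (4.76%) and 33 a more negative difference (3.27%) among 1009 tested. The median of this fit was 0.39, so values are given with that relative to it. The positive ones held *P2ry12*, *Cx3cr1* and *Csf1r*. *P2ry12* was then at 2159.5, 1484 and 1151 CPM in WT and 1619, 1359.8, 2806 and 1759 CPM in V321L microglia, which overlapped, and its interaction of 1.91, or 1.52 relative to the median (edgeR, adjusted p = 6.37e-04) stood beside log2 fold changes of 0.49 in these microglia and -1.56 in other nuclei. *Cx3cr1* was at 524, 247 and 338 CPM in WT and 937, 1022, 1177 and 856 CPM in V321L microglia, with no overlap and an interaction of 2.37, or 1.98 relative to the median (edgeR, adjusted p = 8.70e-04). Negative ones held the potassium channel partner *Kcnip4* (-4.58, or -4.98 relative to the median) and *Nrg3* (-2.50, or -2.89). These genes were named after their values were seen. Of the neuron markers, 4 were tested in this fit, with 0 called in either direction and a median of -0.40. RNA of the neuron markers chose which nuclei were left out, so nothing is read from these values.

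Chromatin accessibility gave a readout that the rule did not use. Peaks of the 8 libraries were merged, and 25604 of 150252 regions held a peak in every library. Of 25418 regions tested, 1383 were more accessible in microglia than in the other nuclei of the same mouse (5.44%) and 7511 less (29.5%; edgeR with mouse as a block, adjusted p under 0.05), with a median log2 difference of -0.92. Scaled by library sizes alone the median was -0.81, with 2250 regions higher and 6399 lower. Of the 1383 regions, 1004 lay within 1 kb of a transcription start site (TSS). Among all 10129 regions tested at that distance, 9.91% were higher and 10.7% lower, with a median of 0.10. Regions were required to hold a peak in every library, and sites with peaks in fewer libraries were not tested here. The number higher was 640 without V321L M1, 660 without V321L F2 and 863 without WT M2, and the number lower was 3557 without V321L M1 and 4149 without V321L F2. With nuclei of at least 0.5% neuronal RNA left out, and WT M1 with them, 785 regions were higher and 13276 lower.

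Regions with the largest difference in favour of microglia included start sites of *Rab39* and *Dock8*. At the TSS of *Rab39*, a small GTPase of the Rab family (chr9:53705906-53706839, mm10), microglia held 1.24, 0.971, 0.252 and 1.45 ATAC counts per 10000 in WT and 2.19, 1.07, 1.30 and 1.52 in V321L mice, and other nuclei 0.129, 0.159, 0.136 and 0.131 and 0.181, 0.137, 0.144 and 0.197. All 8 microglial values lay above all 8 values of other nuclei (2.78 ± 0.25, adjusted p = 2.71e-25), and the genotypes overlapped. At the TSS of *Dock8* (chr19:24998877-25000012) microglia averaged 0.542 ± 0.299 and other nuclei 0.0658 ± 0.0153 per 10000 (SD, n = 8; 2.78 ± 0.53, adjusted p = 1.82e-05). Of the other 8 of the 10, 6 were nearest to *Gm45469*, *Gm39822*, the class I gene *H2-Q4*, the pyroptosis effector *Gsdmd*, the RNase *Zc3h12a* and *Arl4c*, with log2 differences from 2.70 to 3.26, each higher in 8 of 8 mice. Between 100 and 237 microglial counts stood behind each of the 8 regions named here.

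Lists of genes were followed at their start sites. Of 11 regions at lineage transcription factors, 9 were more accessible in microglia and 2, both at *Bhlhe40*, less, with *Irf8* (1.74 ± 0.30, adjusted p = 1.46e-06), *Cebpa* (0.94 ± 0.21, adjusted p = 3.39e-04) and *Mef2a* (0.89 ± 0.21, adjusted p = 6.11e-04) among the 9. Both regions tested at homeostatic genes, *Cst3* among them, were higher, as were 5 of 6 at TGF-β genes, led by *Itgav* (1.90), *Tgfbr1* (1.83) and *Smad3* (1.48), and 7 of 15 at lysosomal genes. Start sites of *Psap* and *Npc2*, lysosomal genes expressed in most cells, did not pass the test. Of 6 neuron marker regions, 0 were higher and 5 lower, with *Syt1*, the calcium sensor of vesicle release, at -2.62 and *Rbfox1* at -2.38, and of 3 at astrocyte markers 2 were lower. Of 66 regions at ribosomal protein genes, 9 were higher and 1 lower, beside 9.91% and 10.7% of all regions near a TSS. At complement and phagocytosis genes, 4 regions were tested and did not pass. With nuclei of at least 0.5% neuronal RNA left out, and WT M1 with them, 4.89% of all regions near a TSS were higher and 19.4% lower. In that fit 6 of 11 regions at lineage factors, 2 of 2 at homeostatic genes, 4 of 6 at TGF-β genes, 6 of 15 at lysosomal genes and 2 of 66 at ribosomal protein genes were higher, and all 6 neuron and 3 astrocyte marker regions were lower.

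**Figure D5:**
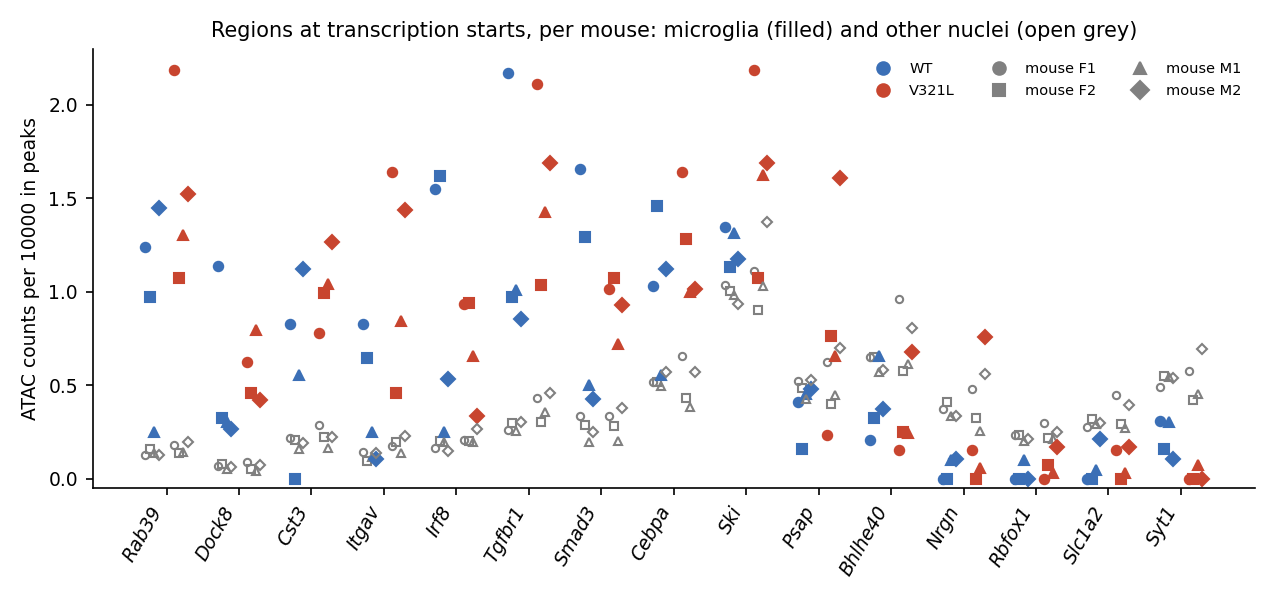
ATAC counts per 10000 in peaks at start sites of named genes, 1 point per mouse, in microglia (filled, blue WT and red V321L) and in other nuclei (open grey). At *Rab39* all 8 microglial values exceeded the other nuclei, at *Psap* they spread around them, and at *Syt1* they lay below. A value of 0 means that the few microglia of that mouse held no count there.

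Most genes of the rule itself had no peak at the start site in enough libraries, as peaks were called on each whole library. Within 1 kb of the TSS of *C1qc*, 6 mice had a peak. Microglia there held 1.24, 0.656 and 1.12 counts per 10000 in WT F1, M1 and M2 and 0.703, 0.555 and 0.997 in V321L F1, F2 and M1. Other nuclei averaged 0.107 ± 0.0173, and microglia were higher in 6 of 6 mice by 0.773 per 10000 (exact sign-flip test, p = 0.0312, the smallest that 6 mice allow, adjusted over the 2 genes tested p = 0.0625). WT and V321L microglia overlapped in accessibility at *C1qc*, where their *C1qc* RNA did not. The RNA covers 8 mice, whereas accessibility rests on 9 to 65 counts in each of 6. It covers 1 peak in WT F1, V321L F1 and V321L F2 and 2 peaks in WT M1, WT M2 and V321L M1. *C1qb* had a peak in 4 mice, with 1.40 against 0.0253 counts per 10000, and *C1qa* and *Ikzf1* in 3 each, too few for a test. At *Prox1*, a granule cell gene of the rule's other classes, microglia (0.338) and other nuclei (0.274) did not differ beyond the spread over 8 mice (exact sign-flip test, p = 0.414). Within 5 kb of the TSS, microglia were higher in 6 of 6 mice at *C1qa* and *C1qc*, in 4 of 6 at *Inpp5d* and in 3 of 6 at *Fyb*. There the adjusted p was 0.0833 for *C1qa* and *C1qc*, 0.3125 for *Inpp5d* and 0.708 for *Fyb* (exact sign-flip test). *Mog* was lower (adjusted p = 0.0833), and *Gja1*, *Pdgfra* and *Prox1* did not differ (adjusted p = 0.789, 0.789 and 0.3625, exact sign-flip test).

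Promoter sequences of genes from these comparisons are shown for the ETS motif that PU.1, the master factor of macrophages, recognises. They were taken from RefSeq (GRCm38.p6) as the 250 bases upstream of the start and are written 5′ to 3′ on the strand of the gene. Capitals mark the core AGGAA and its longer form GAGGAAGT, searched on both strands, and each longer form contains a core. *C1qc* (chr4:136892915-136893164, minus strand) held 2 cores, 1 of them in a longer form, *C1qb* (chr4:136886201-136886450, minus strand) 3 cores, *Itgav* (chr2:83724147-83724396, plus strand) 2 cores with 1 longer form, *Cst3* (chr2:148875513-148875762, minus strand) 2 cores, and *Dock8* (chr19:24999279-24999528, plus strand) none.
C1qc: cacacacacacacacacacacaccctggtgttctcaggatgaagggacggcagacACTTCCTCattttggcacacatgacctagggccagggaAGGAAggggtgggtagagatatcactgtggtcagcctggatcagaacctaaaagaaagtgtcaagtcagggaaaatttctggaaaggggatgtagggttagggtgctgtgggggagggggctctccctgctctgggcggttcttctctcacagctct
C1qb: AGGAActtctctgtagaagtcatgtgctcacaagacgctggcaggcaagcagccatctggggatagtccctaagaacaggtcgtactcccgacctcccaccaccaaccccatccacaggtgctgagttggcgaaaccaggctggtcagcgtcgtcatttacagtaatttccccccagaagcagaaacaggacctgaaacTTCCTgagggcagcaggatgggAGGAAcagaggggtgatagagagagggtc
Itgav: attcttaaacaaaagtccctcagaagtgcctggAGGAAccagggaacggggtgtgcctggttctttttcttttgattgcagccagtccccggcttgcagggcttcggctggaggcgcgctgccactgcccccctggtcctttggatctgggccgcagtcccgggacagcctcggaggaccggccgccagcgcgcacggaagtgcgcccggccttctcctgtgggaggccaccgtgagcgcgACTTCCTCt
Cst3: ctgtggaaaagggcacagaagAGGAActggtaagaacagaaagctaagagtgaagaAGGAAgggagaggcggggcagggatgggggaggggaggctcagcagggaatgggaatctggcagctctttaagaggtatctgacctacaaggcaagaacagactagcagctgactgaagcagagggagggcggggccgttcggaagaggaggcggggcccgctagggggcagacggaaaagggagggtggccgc
Dock8: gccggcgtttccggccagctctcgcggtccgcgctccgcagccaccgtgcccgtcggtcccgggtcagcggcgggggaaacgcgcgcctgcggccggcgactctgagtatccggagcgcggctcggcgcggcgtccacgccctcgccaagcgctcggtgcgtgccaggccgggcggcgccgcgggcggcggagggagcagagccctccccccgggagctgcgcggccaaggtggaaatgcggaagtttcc

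Of 19 genes looked up, 15 had an entry, with 20 promoters in all. The core occurred in 11 of the 20 and the longer form in 2, against 60.3% and 2.44% of all 32851 promoters over the same length. Promoters of *Itgav*, *Cst3* and *Dock8* overlapped regions that were more accessible in microglia, and *Dock8* was among them with no match in this window. A match is a description of the sequence only.

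Accessibility of microglia was finally compared between genotypes. Of 3842 regions with enough counts, 0 were higher and 0 lower in V321L (0%; edgeR, adjusted p under 0.05). At an unadjusted p under 0.05 there were 113 and 67, and DESeq2 called 0, with 115 and 86 unadjusted. Microglial ATAC counts summed to 96756, 61773, 198230 and 186803 in WT and 128056, 522052, 651932 and 118306 in V321L libraries, which leaves few counts per region and mouse. That no region passed does not show that there was no difference, and 9 regions were higher and 1 lower when regions of low counts were tested as well, and 1 higher among regions with a peak in at least 4 libraries. At the *Rab39* start site the difference was 0.40 ± 0.35 on the log2 scale (edgeR, adjusted p = 0.991).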

How the data were processed

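Nuclei of the microdissected dentate gyrus of 8 mice were profiled for RNA and accessible chromatin with 1 library per mouse. The deposited files hold raw counts, RNA UMIs per gene and ATAC counts per peak for every barcode, which the authors made with Cell Ranger ARC, calling peaks in each library on its own. The submitters' processing notes name mm10, Cell Ranger, Seurat and Signac. Library totals ran from 4326426 to 14624265 RNA UMIs in WT and from 15505354 to 23582057 in V321L libraries, with no overlap. The part of this difference in the comparisons between genotypes was not tested. No cell annotation of the authors was used, and microglia were found by the marker rule. The members and all gene lists were chosen with earlier results of these data known.

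Counts were summed per mouse over microglia and over the other nuclei, and the mouse was the unit. Whether mice shared a litter or a day is not given in the sources used here. Genes and regions were tested with edgeR 4.0.16 (quasi-likelihood, TMM scaling, filterByExpr) in R 4.3.3 with Benjamini-Hochberg adjustment, with mouse as a block where microglia were compared with other nuclei. DESeq2 1.42.0 was an alternative. The functions were tested on simulated data. Fold changes are given ± their standard error. Shares, quality measures and start-site counts were compared with exact two-sided permutation or sign-flip tests (scipy 1.17.1). Doublets were scored with Scrublet (scanpy 1.11.5) and kept, since the alternative without them is given. Free RNA was taken from barcodes with at most 100 UMIs. Overlapping peaks of the libraries were merged into regions. Intervals and floors (3 counts over the group) cover counting error only. Named genes were the 15 genes of the rule, up to 4 members of each list with the highest CPM, the 10 largest rises and falls with an adjusted p under 0.05, a mean of 100 CPM or more and genotypes that did not overlap, the strongest interactions, and the 10 genes and regions that most exceeded other nuclei. Other list members are named for their role, and those named for neuron-poor microglia alone were chosen after their values were seen. Some items that met this rule are counted but not reported here. Leaving out nuclei with at least 0.5% neuronal RNA and leaving C1q genes out of the rule were chosen after seeing the data. Promoter sequences came from RefSeq GRCm38.p6.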

Additional observations from a re-analysis of the deposited data

Results flagged for a closer look

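Of 138 groups of 4 mice examined, 7 held a mouse far from the other 3 of its group by Dixon's criterion, and chance flags about 1 in 20. WT M1 had the highest median UMIs (2041) and genes (1214.5) per microglial nucleus. WT F1 was high for Lyn (1065 CPM). WT M1 held the only WT UMIs of Rplp1 and Cox8a, 32.3 CPM each. V321L M1 was high for Gm26917 (42.3 CPM), and V321L M2 for Nrg3 (3276 CPM).

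The genotype difference in microglia departed from that in other nuclei for Phlpp1, by -2.23 on the log2 scale, in a fit whose median over all genes was -0.22. With nuclei of at least 0.5% neuronal RNA left out, the departure was -2.10, or -2.49 relative to the median (edgeR, adjusted p = 0.00322).

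Outside the nuclei analysed, 461 barcodes of V321L libraries met the marker rule but exceeded the mitochondrial limit, against 3 of WT libraries. Of these, 143 V321L and 1 WT barcodes failed no other limit.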

How the results depend on the processing

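The share kept its direction in every setting run, and the replicate block, which no label supports as a pairing (correlations of same-numbered mice were 0.036, -0.147, -0.198 and -0.330), left it at 3.30 (p = 0.125, exact sign-flip, the smallest that 4 pairs allow). Under the replicate block 173 genes were higher and 42 lower in V321L, and higher ones were 80.5% of the calls, against 61.9% without it. Median genes turned to -23.1 with at least 5 marker UMIs and median ATAC counts to 418 with 0 UMIs of the other classes, and leaving out single mice spanned -49.6 to 169.9 genes, -297 to 118 UMIs and -2940 to 1919 ATAC counts.

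Genes higher and lower in V321L numbered 121 and 33 with at least 5 marker UMIs, 123 and 33 with 0 UMIs of the other classes, 61 and 56 after thinning, and 122 to 409 and 28 to 207 without single mice. Lower genes were 83 with doublets removed and 275 by library sizes alone, and higher genes 995 with no filter. More positive and more negative interactions numbered 1 and 1 with doublets removed, 6 and 0 thinned, 5 and 5 by library sizes, 59 and 11 unfiltered, 48 and 33 with neuron-rich nuclei left out, and 0 to 19 and 1 to 43 without single mice. DESeq2 gave 19 more positive ones, and 1 more negative one was left with at least 5 marker UMIs and with 0 UMIs of the other classes.

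Regions higher and lower in microglia numbered 576 and 11605 with at least 5 marker UMIs, 624 and 11896 with 0 UMIs of the other classes, 785 and 13276 with neuron-rich nuclei left out, 4051 and 11402 with the mouse left out of the design, and 640 to 1804 and 3557 to 7653 without single mice. Higher regions were 833 with doublets removed and 2250 by library sizes, and lower regions 12591 by DESeq2. Between genotypes 9 regions were higher and 1 lower unfiltered, and 1 was higher among regions with a peak in at least 4 libraries. Prox1 turned to -0.0197 with at least 5 marker UMIs.

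For microglial genes V321L against WT, Dock2 turned to -0.37 with at least 5 marker UMIs, -0.13 thinned, -0.22 by library sizes, -0.22 among genes at least as high in microglia and -0.29 with neuron-rich nuclei left out. The difference of microglial genes V321L against WT, Tgfbr1, turned to -0.060, -0.11, -0.070 and -0.20 in the same settings except thinning. Without single mice Dock2 spanned -0.24 to 0.22, Tgfbr1 -0.14 to 0.41, Mef2a -0.48 to 0.033 and Mef2c -0.38 to 0.11. The causes were not tested. With 12 to 30 microglia per WT mouse, depth limits single genes and regions.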
